A study of Homo sapiens with 4 samples.

Results

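Syndecans and glypicans are the main families of cell surface proteoglycans that carry heparan sulfate. They were chosen here by gene symbol, SDC1 to SDC4 and GPC1 to GPC6, which gave 10 of the 61806 genes in the deposited table. Their RNA was measured in the human cell line JJ012, which was established from a chondrosarcoma (a cartilage-forming malignancy of bone). The untreated group had 2 libraries, and the other 2 came from cells given 10 µM Antcin K, a triterpenoid of the fungus Antrodia cinnamomea, for 24 h. All 4 libraries were labelled as wild type and as cancer cells from bone. The labels name no vehicle for the untreated cells. Nor do they state whether replicates came from different cultures, so p-values here reflect variation among the sampled libraries alone, and it could be technical.

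Syndecans span the membrane, with heparan sulfate chains on the outside and a short tail that binds cytoskeletal and signalling proteins on the inside. Glypicans lack such a tail and are held to the outer leaflet of the membrane by a glycosylphosphatidylinositol (GPI) anchor. The chains of both families bind growth factors, chemokines, morphogens and matrix proteins and present them to their receptors. In cartilage and its tumours, heparan sulfate is best known for setting the range and strength of fibroblast growth factor and Hedgehog signals.

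Of the 10 genes, 6 gave enough counts to be tested, namely the 4 syndecans, GPC1 and GPC6. By edgeR's quasi-likelihood test 0 of these 6 differed after Antcin K at an adjusted p under 0.05, as did 0% of the 14717 genes tested, and DESeq2 called 0 of the 6 against 0.514% of the 11293 genes to which it gave an adjusted p. GPC6 was the member farthest from equality, at 1.64-fold lower after Antcin K with an unadjusted p = 0.0232 in the same edgeR fit (adjusted p = 0.376). It was the only member with an unadjusted p under 0.05, a level reached by 12.4% of all genes tested. The line expressed SDC1 most, followed by SDC2 and GPC1, while GPC2, GPC3 and GPC5 had 0 to 3 counts in each library.

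The deposited counts summed to 26270686 and 18757254 in untreated replicates 1 and 2 and to 20690078 and 16911257 in Antcin K replicates 1 and 2. Mitochondrially encoded genes took 26.0% and 12.9% of them in the untreated libraries, against 13.5% and 19.3% in the libraries of Antcin K. Of 16 cartilage markers, COL2A1, the defining chain of type II collagen, was at 0 counts in every library, and ACAN, the aggrecan core protein, had 0 to 4. SOX9, the master regulator of cartilage, had 112 to 563 counts, and COL9A2 had 98 to 232. Of 11 mesenchymal and bone markers, VIM had 49267 to 142854 counts, COL1A1 149 to 1194 and PDGFRB 224 to 379. PDGFRA, SP7, BGLAP and IBSP had 0 to 7. The highest counts of SOX9 and VIM were those of untreated replicate 1. The summed FPKM (fragments per kilobase of exon, scaled to the library total) of the 16 cartilage markers was 9.79 and 6.29 in untreated cells and 4.66 and 5.98 after Antcin K.

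To show where these transcripts begin, the 120 bases before the RefSeq start site (GRCh38.p14, the assembly of the hg38 build used by the authors) are given for the highest syndecan and glypican, for SDC4 and GPC6, whose order by level differed between the groups, and for GPC5, the neighbour of GPC6 with almost no counts. Each is written 5′ to 3′ on the strand of the gene, and capitals mark matches to the GC box GGGCGG on either strand.
SDC1 (chr2:20225476-20225595, minus strand): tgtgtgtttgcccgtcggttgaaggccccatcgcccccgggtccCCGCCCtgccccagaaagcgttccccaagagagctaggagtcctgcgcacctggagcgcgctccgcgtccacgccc
SDC4 (chr20:45348425-45348544, minus strand): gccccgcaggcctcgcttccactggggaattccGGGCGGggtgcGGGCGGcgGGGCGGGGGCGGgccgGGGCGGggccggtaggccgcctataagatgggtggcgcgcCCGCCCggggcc
GPC1 (chr2:240435543-240435662, plus strand): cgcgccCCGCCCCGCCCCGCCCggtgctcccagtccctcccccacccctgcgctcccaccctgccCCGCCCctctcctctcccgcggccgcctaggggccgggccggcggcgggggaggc
GPC5 (chr13:91398501-91398620, plus strand): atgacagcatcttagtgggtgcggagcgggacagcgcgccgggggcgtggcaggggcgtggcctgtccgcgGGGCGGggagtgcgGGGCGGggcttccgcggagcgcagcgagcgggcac
GPC6 (chr13:93226687-93226806, plus strand): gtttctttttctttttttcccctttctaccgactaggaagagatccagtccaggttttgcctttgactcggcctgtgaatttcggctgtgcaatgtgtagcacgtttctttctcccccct

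The GPC6 stretch held 0 GC boxes and that of SDC4 held 6, none of which share a letter, while matches in the GPC1 run overlap. Over the 250 bases before the start, GC content was 37.6% for GPC6 and ran from 62.4% for GPC5 to 84.0% for GPC1 among the other 7 members with an entry, against a median of 58% over 35116 RefSeq promoters. The number of CpG dinucleotides in that window was 6 for GPC6, 25 for GPC5 and 36 for GPC1, against a median of 11. The GC box was found in that window of 42.6% of all promoters, and among the 8 members with an entry in all but GPC6. SDC4, GPC5 and GPC6 each held 1 match to TATAA, found in 18.9% of all promoters, and SDC4 held 1 to the NF-κB consensus, found in 9.96% (both strands searched). GPC4, with few counts, had 76.0% GC. SDC2 and GPC3 had no entry. The RefSeq start site of SDC1 lay 42 bases from the deposited start of the gene, and those of the other members with an entry lay at it. A match to letters is a description of the reference, not a site.

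The order of the genes by deposited FPKM, which corrects for exonic length, was nearly the same in every library. SDC1 (ENSG00000115884, chr2:20200797-20225433, minus strand) encodes the syndecan best known from epithelia and plasma cells. Its level was 16.1 and 15.5 FPKM in untreated replicates 1 and 2 and 17.5 and 18.3 FPKM in Antcin K replicates 1 and 2, first of the 10 in all 4 libraries. Averaged over the libraries this lay above 92.8% of the 28764 genes with a count. Of 7 epithelial markers, EPCAM had 0 to 2 counts in each library, CDH1 1 to 8, KRT19 12 to 27 and CLDN4, the highest, 66 to 72. Of 7 markers of plasma cells and other leukocytes, PTPRC and JCHAIN had 0 counts and MZB1 1 to 9. CD68 had 21 to 38 counts and CD3E 37 to 140. The 7 epithelial markers summed to 1.33 and 1.96 FPKM in untreated cells and to 1.40 and 1.38 FPKM after Antcin K. The 7 leukocyte markers summed to 2.83 and 1.63 FPKM in untreated cells and to 1.60 and 2.39 FPKM after Antcin K.

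SDC2 (ENSG00000169439, chr8:96493813-96611790, plus strand), the syndecan of mesenchymal cells, stood at 7.45 and 8.28 FPKM untreated and 9.92 and 7.92 FPKM after Antcin K. GPC1 (ENSG00000063660, chr2:240435663-240468076, plus strand), a widely expressed glypican that binds fibroblast growth factors, stood at 9.76 and 5.15 FPKM untreated and 5.77 and 7.72 FPKM after Antcin K. The levels of these 2 genes crossed: GPC1 was above SDC2 in untreated replicate 1 and below it in the other 3 libraries, so their order did not hold beyond the spread between replicates. SDC3 (ENSG00000162512, chr1:30869466-30908758, minus strand), best known from neural tissue, came after these 3 in every library, at 5.01 and 2.76 FPKM untreated and 3.59 and 4.39 FPKM after Antcin K.

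**Figure D1:**
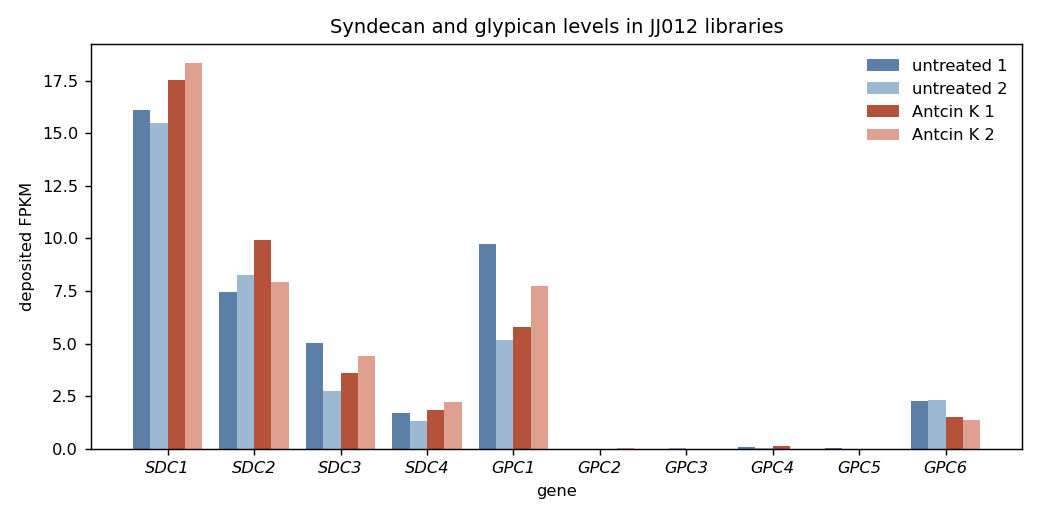
Deposited FPKM (vertical axis, linear from 0) of the 10 syndecan and glypican genes, with a bar for each of the 2 untreated and 2 Antcin K libraries. SDC1 was highest in all 4 libraries, at 15.5 to 18.3 FPKM, and GPC2, GPC3, GPC4 and GPC5 lay at 0.12 FPKM or below.

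SDC4 and GPC6 shared the next ranks, and their order was opposite in the 2 groups. SDC4 (ENSG00000124145, chr20:45325288-45348424, minus strand) encodes the syndecan of focal adhesions, which binds protein kinase Cα. It stood at 1.70 and 1.31 FPKM untreated and 1.85 and 2.22 FPKM after Antcin K. GPC6 (ENSG00000183098, chr13:93226807-94408020, plus strand), a glypican of the growth plate whose loss in humans causes the short-limb disorder omodysplasia, stood at 2.26 and 2.32 FPKM untreated and 1.52 and 1.38 FPKM after Antcin K. GPC6 was thus above SDC4 in both untreated libraries and below it in both Antcin K libraries. The ratio of SDC4 to GPC6 within a library, which no scaling between libraries can change, was 0.754 and 0.563 untreated and 1.22 and 1.61 after Antcin K. This pair was chosen after its values were seen, so the ratio is a description with no test.

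**Figure D2:**
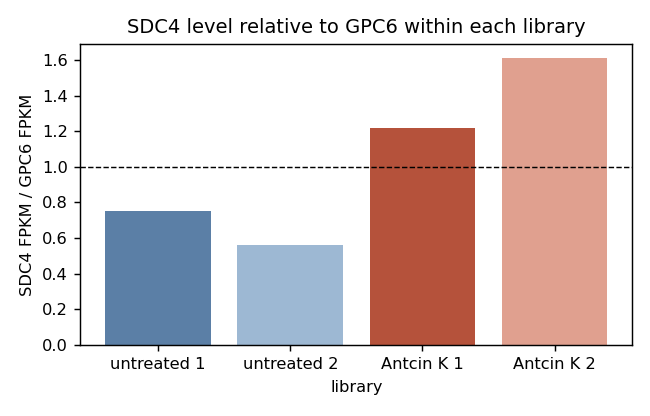
Ratio of SDC4 to GPC6 per exonic length (vertical axis, linear from 0) in each of the 4 libraries, with the dashed line at equal levels. The ratio was 0.754 and 0.563 in the untreated libraries, against 1.22 and 1.61 in the libraries of Antcin K.

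The other 4 glypicans were at or near the limit of the counts. GPC4 (ENSG00000076716, chrX:133300103-133415489, minus strand), known from developing brain and kidney, had 11 and 2 counts in untreated replicates 1 and 2, against 12 and 1 after Antcin K. The 11 and 12 counts came from the libraries numbered 1 and the 2 and 1 from those numbered 2, so the replicates differed more than the groups. GPC3 (ENSG00000147257, chrX:133535745-133987100, minus strand), a marker of liver cancer, had 2 counts in untreated replicate 2 and 0 elsewhere. GPC5 (ENSG00000179399, chr13:91398621-92873682, plus strand), a glypican that promotes Hedgehog signalling, had 3 counts in untreated replicate 1 and 0 elsewhere. GPC2 (ENSG00000213420, chr7:100169606-100177381, minus strand), a glypican of developing neurons, had 2 counts in Antcin K replicate 2 and 0 elsewhere.

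A count of 0 allows up to 3 counts, which is 0.114 to 0.177 CPM (counts scaled to a common library total) in these libraries, and such limits cover counting error only. GPC3, GPC4 and the gap of 120.3 kb between them lie on the same strand of the X chromosome, and GPC5 and GPC6 lie 353.1 kb apart on the same strand of chromosome 13. Of these 2 neighbouring pairs, only GPC6 passed the count filter. The genes that overlap the members in the table held few counts: 10 for the antisense transcript ENSG00000278177 against 1123 for GPC6, 5 for ENSG00000275894 against 379 for SDC4, and 0 for GPC1-AS1 against 3933 for GPC1. The opposite-strand pseudogene RPS24P19 held 4 counts against 2 for GPC3, so the counts of GPC3 are uncertain.

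Within the syndecan family, SDC1 made up 53.3% and 55.6% of the summed FPKM in untreated cells and 53.3% and 55.8% after Antcin K. SDC4 made up 5.61% and 4.71% untreated and 6.76% and 5.63% in Antcin K replicates 2 and 1, and the mean share was 1.03 percentage points higher after Antcin K (exact two-sided permutation test, p = 0.333). That difference was 0.579 points without untreated replicate 2, 0.468 points without Antcin K replicate 2 and 1.60 points without Antcin K replicate 1. The summed syndecan FPKM was 30.3 and 27.8 untreated, against 32.9 and 32.9 after Antcin K, a log2 difference of 0.18 (exact two-sided permutation test, p = 0.333). In CPM scaled by the trimmed mean of M values, the sums were 127 and 118 untreated, against 128 and 137 after Antcin K. That made a log2 difference of 0.11 (exact two-sided permutation test, p = 0.333). With 2 libraries against 2, 0.333 is the smallest p that this test can give, so the design cannot pass a threshold of 0.05. Summed glypican FPKM was 12.1 and 7.52 untreated and 7.41 and 9.14 after Antcin K, so the groups overlapped (exact two-sided permutation test, p = 0.667). Without untreated replicate 1 the log2 difference of that sum turned from -0.21 to 0.13. GPC1 made up 80.5% and 68.5% of it untreated and 77.9% and 84.5% after Antcin K (exact two-sided permutation test, p = 0.667), a difference of 6.69 points that was 0.704 points without untreated replicate 2 and 12.7 points without untreated replicate 1.

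The design asks how transcript levels stand after 24 h with Antcin K. To compare the groups, counts were scaled by the trimmed mean of M values (TMM), and levels from here on are TMM-scaled CPM, which is not corrected for gene length. In a culture, a change in RNA per cell and a change in the mix of cells cannot be told apart. Both Antcin K libraries lay above both untreated libraries for SDC1 and SDC4, 2 of the 6 tested members against 22.6% of all genes tested. Both lay below for GPC6, 1 of 6 against 23.3% of all genes. These shares are near the background or rest on 1 gene, and SDC2, SDC3 and GPC1 overlapped between the groups.

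GPC6 had 423 and 310 counts in untreated cells and 224 and 166 after Antcin K, or 15.9 and 17.4 CPM against 10.4 and 9.92 CPM. The untreated mean was 16.6 ± 1.02 CPM and the treated mean 10.1 ± 0.323 CPM (SD, n = 2 in each). The replicates were 1.09-fold apart in untreated cells and 1.05-fold apart after Antcin K, less than the 1.64-fold between the groups. On the log2 scale the fold change was -0.71 (standard error 0.26, 95% interval -1.30 to -0.12, edgeR, adjusted p = 0.376). By unadjusted p, 6.14% of the 14717 genes ranked before it. The sign was negative under each of the 17 alternative settings tried, from -0.77 to -0.43. With groups that do not overlap, that sign was largely fixed in advance for GPC6. Without untreated replicate 1 the log2 fold change was -0.77, in a fit that assumes the lone untreated library to vary like the Antcin K pair. With every library kept, the adjusted p of GPC6 ran from 0.0508 to 0.730 over the settings (edgeR, DESeq2 and limma). The lowest came from edgeR with the replicate numbers crossed as a block, chosen after seeing the data.

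SDC4, with 117 and 64 counts untreated against 100 and 98 treated, stood at 4.40 and 3.58 CPM and at 4.63 and 5.86 CPM. The groups did not overlap, but the nearest values, 4.40 and 4.63 CPM, were closer than the replicates of either group. Its log2 fold change was 0.39 (standard error 0.33, 95% interval -0.37 to 1.14, edgeR, adjusted p = 0.644). It was 0.24 without Antcin K replicate 2 and 0.25 without untreated replicate 2. SDC1, at 57.6 and 58.8 CPM in the untreated libraries and 60.7 and 66.9 CPM in the treated ones, had the closest replicates of the members in untreated cells, 1.02-fold apart. After Antcin K its replicates were 1.103-fold apart, slightly more than the 1.096-fold between the groups. Its log2 fold change was 0.13 (interval -0.39 to 0.65, edgeR, adjusted p = 0.831). SDC2 stood at 30.1 and 35.5 CPM in the untreated libraries and 38.8 and 32.7 CPM in the treated ones, a log2 fold change of 0.13 (interval -0.42 to 0.67, edgeR, adjusted p = 0.849). Its replicates were 1.18-fold apart in untreated cells and 1.19-fold apart after Antcin K, more than the 1.09-fold between the groups.

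**Figure D3:**
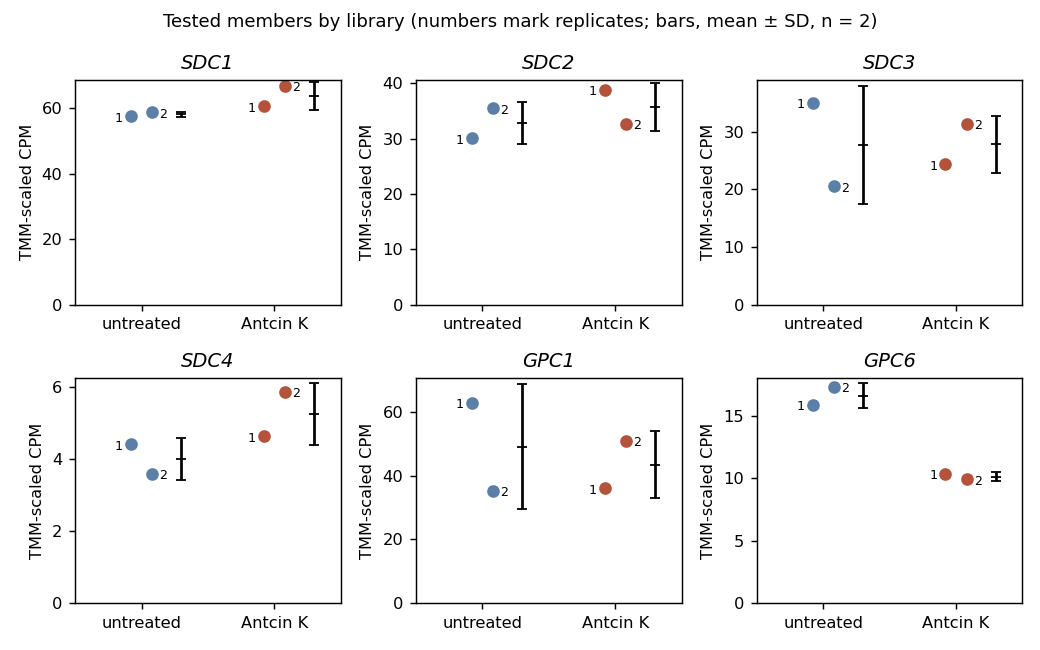
TMM-scaled CPM (vertical axes, linear from 0) of the 6 tested members in untreated and Antcin K cells, with each point a library and its replicate number beside it, and black bars for mean ± SD (n = 2). GPC6 shows tight pairs at 15.9 and 17.4 CPM against 10.4 and 9.92 CPM, while the SDC3 and GPC1 pairs are wide and overlap.

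SDC3 and GPC1 also differed more between replicates than between groups, and by wider margins than SDC1 and SDC2. GPC1 had 63.0 and 35.3 CPM in untreated replicates 1 and 2 and 36.0 and 50.9 CPM in Antcin K replicates 1 and 2. Its untreated replicates were 1.78-fold apart and its groups 1.13-fold (log2 fold change -0.18, interval -0.92 to 0.57, edgeR, adjusted p = 0.843). SDC3 had 35.0 and 20.5 CPM in the untreated libraries and 24.3 and 31.3 CPM in the treated ones, with untreated replicates 1.71-fold apart and groups 1.00-fold (log2 fold change 0.00, interval -0.70 to 0.71, edgeR, adjusted p = 0.999). In both genes the libraries fell in the order of the mitochondrial share, from untreated replicate 1 over Antcin K replicates 2 and 1 to untreated replicate 2. That order was found in 902 of the 14717 tested genes (6.13%), and the part of the mitochondrial share in these values was not tested.

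The direction for both genes rested on single libraries. The log2 fold change of GPC1 was 0.30 without untreated replicate 1 and -0.54 without untreated replicate 2, where its adjusted p was 0.0299 (edgeR, range over the settings 0.0299 to 0.9998). That fit takes the spread from the Antcin K pair alone and called 3971 genes. That of SDC3 was 0.44 with untreated replicate 1 left out and -0.33 with untreated replicate 2 left out, and it also turned sign without Antcin K replicate 2 (-0.17). GPC1 turned sign without Antcin K replicate 1 as well (0.03), and SDC2 did so there too (-0.02). SDC1, SDC4 and GPC6 kept their sign without each library in turn. Their groups did not overlap, which largely fixes that outcome in advance. Of all genes tested, 22.6% had both Antcin K libraries above both untreated libraries and 23.3% had both below.

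**Figure D4:**
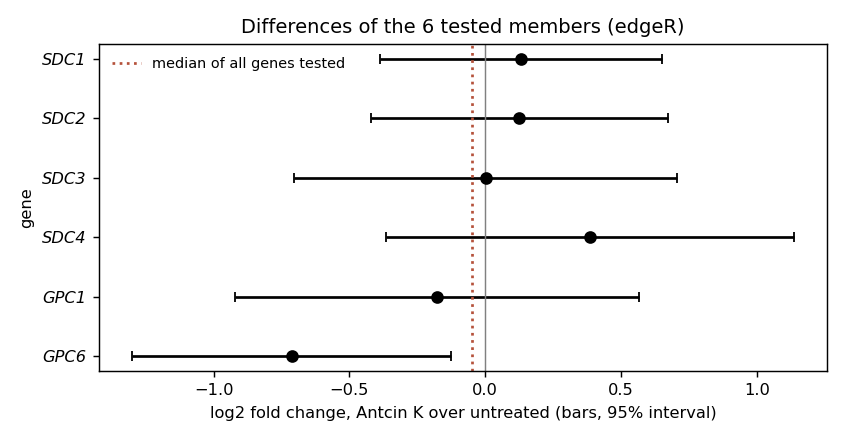
Log2 fold change of Antcin K over untreated (horizontal axis) for the 6 tested members, with 95% intervals from the edgeR fit, a grey line at 0 and a dotted line at the median of all genes tested (-0.05). Of the 6 intervals, only that of GPC6 (-1.30 to -0.12) lies to one side of 0, and it is not adjusted for the number of genes.

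As the genes most alike in pattern, those with the smallest root mean square difference in centred log2 CPM over the 4 libraries were taken among 8922 genes with a mean of at least 5 CPM. For GPC6 these were PLPP2, a lipid phosphatase gene (0.036), the taste receptor gene TAS1R1 (0.039) and NARS1, the asparaginyl-tRNA synthetase gene (0.043). PLPP2 stood at 28.5 and 31.2 CPM in the untreated libraries and 18.1 and 16.8 CPM in the treated ones. For SDC1 they were SOWAHC (0.0046), the kinase gene SIK3 (0.011) and RER1, a Golgi protein gene (0.014), which overlaps PEX10 on the opposite strand. The measure rests on 4 libraries.

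Beyond the members, 8 lists of genes tied to heparan sulfate were examined. With adjustment over the whole table, edgeR called 0 of their genes. Testing every gene with a count instead (0.723% of 28764 called) gave calls for NRP1, ADAM9, MMP2, THBS1, ITGAV and ITGB1, and DESeq2 gave them for ITGAV and ITGB1. The values below therefore describe levels, beside a median log2 fold change of -0.05 over all genes tested. Of all genes tested, 6802 had a higher and 7915 a lower mean in the treated libraries, and 12.4% had an unadjusted p under 0.05 by edgeR. That level was reached by 2 of 20 syndecan tail partners, 1 of 11 other proteoglycans, 5 of 16 ligands and 4 of 23 receptors. Counts for the other lists are given with them. Single libraries moved the list medians, so each list is also given with untreated replicate 1, untreated replicate 2, Antcin K replicate 1 and Antcin K replicate 2 left out, in that order. Untreated replicate 1 had the highest mitochondrial share of the 4. The part of that share in the list values was not tested.

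Among 14 tested genes of linker and chain synthesis, 7 had a higher mean in the treated libraries and 7 a lower one (median log2 fold change 0.04), and 2 had an unadjusted p under 0.05 by edgeR, EXT2 and UGP2. The median with a library left out was 0.077, 0.060, 0.071 and -0.0086. EXT2, a subunit of the polymerase that extends heparan sulfate chains, stood at 43.6 and 60.6 CPM in the untreated libraries and 95.1 and 86.8 CPM in the treated ones (log2 fold change 0.80, standard error 0.26). EXT1, its partner, was at 46.4 and 36.8 CPM in the untreated libraries and 46.8 and 55.9 CPM in the treated ones, groups that nearly touch. EXTL3, which helps to start the chain, had a log2 fold change of 0.51. UGP2, which makes UDP-glucose, the source of the chains' glucuronic acid, stood at 18.8 and 13.0 CPM in the untreated libraries and 10.2 and 7.83 CPM in the treated ones (-0.82, or -0.52 without untreated replicate 1).

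Among 12 tested genes of chain modification, 4 had a higher and 8 a lower mean (median log2 fold change -0.14), and 2 had an unadjusted p under 0.05, HS6ST1 and HS3ST3A1. With each library left out in turn the median was -0.026, 0.19, -0.068 and -0.16, and 7 genes were higher and 5 lower without untreated replicate 2. HS6ST1, which adds 6-O-sulfate groups, stood at 14.2 and 16.9 CPM in the untreated libraries and 28.1 and 29.1 CPM in the treated ones (log2 fold change 0.88, standard error 0.24, edgeR, adjusted p = 0.366). HS3ST3A1, which adds 3-O-sulfate groups, stood at 21.1 and 17.6 CPM in the untreated libraries and 9.96 and 13.2 CPM in the treated ones (-0.74). HS2ST1, the 2-O-sulfotransferase gene, overlapped between the groups (-0.56), and its value was -0.93 without untreated replicate 1 and -0.08 without untreated replicate 2. The most abundant gene of the list beside the sulfate donor transporter SLC35B2 was NDST1, an N-deacetylase and N-sulfotransferase, whose groups overlapped as well.

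Among 14 tested genes of shedding and chain cleavage, 6 had a higher and 8 a lower mean (median log2 fold change -0.19), and 4 had an unadjusted p under 0.05, GDE1, HPSE, ADAM9 and MMP2. Left-out libraries gave medians of 0.068, -0.35, -0.086 and -0.21, and 8 genes were higher and 6 lower without untreated replicate 1. HPSE encodes heparanase, the enzyme that cuts heparan sulfate chains, and stood at 10.3 and 11.4 CPM in the untreated libraries and 21.4 and 20.8 CPM in the treated ones. The log2 fold change came to 0.96 (standard error 0.25), and both replicate pairs were closer than the groups (edgeR, adjusted p = 0.366). GDE1 is a glycerophosphodiesterase gene, and these data do not show whether it acts in shedding. It stood at 29.4 and 36.0 CPM in the untreated libraries and 63.8 and 58.9 CPM in the treated ones (0.91). Another glycerophosphodiesterase gene of the list, GDPD5, overlapped between the groups (-0.35). ADAM9, a membrane protease gene that overlaps TM2D2 on the opposite strand, had 31.7 and 12.5 CPM in the untreated libraries and 8.99 and 8.90 CPM in the treated ones (-1.31, or -0.49 without untreated replicate 1).

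Among 27 tested genes of GPI anchor synthesis, 11 had a higher and 16 a lower mean (median log2 fold change -0.14), and 4 had an unadjusted p under 0.05 in either direction, DPM3, PIGC, PIGH and PIGQ. Its median was -0.073, -0.16, -0.055 and -0.14 with a library left out. PIGH, a subunit of the enzyme of the first step that overlaps PLEKHH1 on the opposite strand, stood at 3.73 and 4.82 CPM in the untreated libraries and 8.71 and 8.66 CPM in the treated ones (1.03). PIGQ, a subunit of the same enzyme, stood at 43.7 and 25.0 CPM in the untreated libraries and 12.6 and 20.2 CPM in the treated ones (-1.07, or -0.61 without untreated replicate 1). PIGC, a further subunit, had 0.70, so subunits of this enzyme had means on both sides.

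Of 20 tested partners of the syndecan tail, 3 had a higher and 17 a lower mean (median log2 fold change -0.23), while 11 had a higher and 9 a lower value without untreated replicate 1. The 4 medians with a library left out were 0.049, -0.39, -0.13 and -0.31. EZR, which encodes the membrane linker ezrin, stood at 30.6 and 29.6 CPM in the untreated libraries and 44.9 and 42.2 CPM in the treated ones (0.54). RHOG, a small GTPase gene, had 239 and 134 CPM in the untreated libraries and 86.2 and 127 CPM in the treated ones (-0.80, or -0.33 without untreated replicate 1). SDCBP, the gene of syntenin, which binds the end of the syndecan tail, had 112 and 78.6 CPM in the untreated libraries and 72.5 and 74.0 CPM in the treated ones, and its relative SDCBP2 stood at -0.85 on the log2 scale, or -1.28 and -0.28 with untreated replicate 1 and 2 left out. SDCBP2 overlaps its own antisense gene, which holds more counts. DPM3, EXT1, GDPD5, HBEGF, MMP2, NDST1, SDCBP, SLC35B2 and TGFB2 were named after their values were seen.

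Among 11 tested other proteoglycans, part-time carriers of heparan sulfate included, 2 had a higher and 9 a lower mean (median log2 fold change -0.67), while 5 had a higher and 6 a lower value without untreated replicate 1. Leaving out each library gave medians of -0.0076, -0.74, -0.33 and -0.89. NRP1, the neuropilin co-receptor gene, stood at 35.4 and 60.2 CPM in the untreated libraries and 19.9 and 20.1 CPM in the treated ones (-1.25, or -0.82 without untreated replicate 2). The basement membrane proteoglycan genes AGRN and HSPG2 had log2 fold changes of -1.11 and -1.19, or -0.29 and -0.37 without untreated replicate 1, and their groups overlapped (HSPG2 was at -0.75 without Antcin K replicate 1).

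Among 16 tested ligands that bind heparin, 5 had a higher and 11 a lower mean (median log2 fold change -0.54, and -0.13, -0.87, -0.32 and -0.77 with each library left out). THBS1, the thrombospondin 1 gene, had a log2 fold change of -1.62, PDGFB one of -0.90 and PTN, the gene of the syndecan ligand pleiotrophin, one of -1.79 at 0.941 and 1.12 CPM in the untreated libraries and 0.185 and 0.418 CPM in the treated ones. PTN and THBS1 had values of -1.30 and -1.17 without Antcin K replicate 1. TGFB2 (log2 fold change -1.16) and HBEGF (0.80) also had an unadjusted p under 0.05 by edgeR. HBEGF stood at 6.66 and 4.87 CPM in the untreated libraries and 9.08 and 11.1 CPM in the treated ones. Among 23 tested receptors, 11 had a higher and 12 a lower mean (median log2 fold change 0.00, and 0.29, 0.029, 0.061 and -0.086 with each library left out). ITGB1 and ITGAV, integrin subunit genes whose products act with syndecans at adhesions, had -1.38 and -1.58, or -1.03 and -0.87 without untreated replicate 1, and GAS1, a Hedgehog co-receptor gene, had 1.53 at under 1 CPM in every library.

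**Figure D5:**
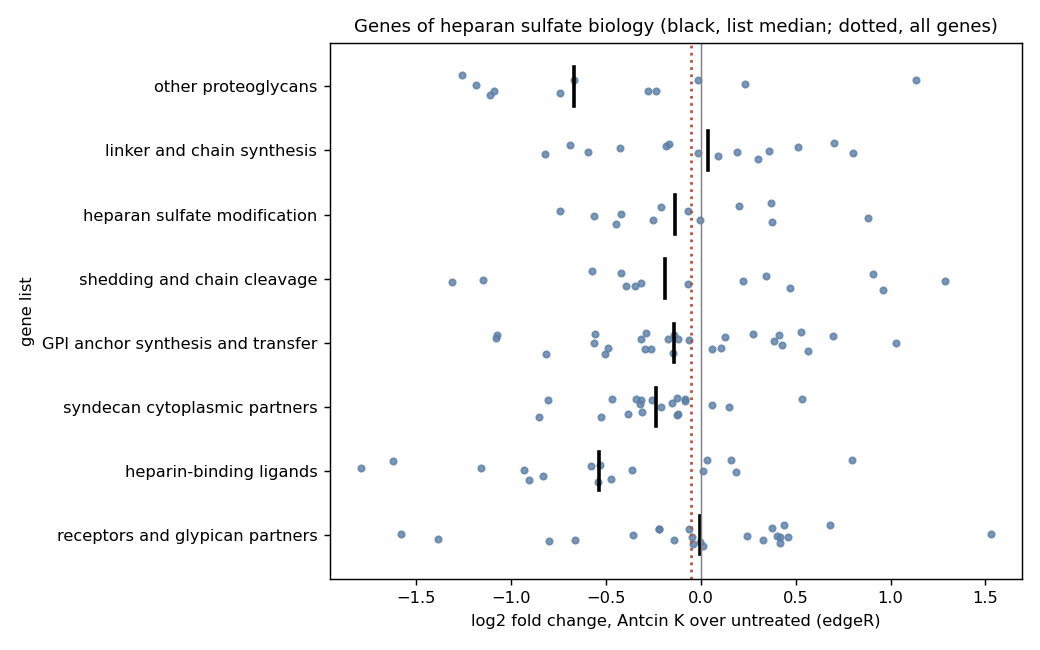
Log2 fold change of Antcin K over untreated (horizontal axis, edgeR) for each tested gene of the 8 lists, with a black bar at each list's median, a grey line at 0 and a dotted line at the median of all genes tested. List medians ran from -0.67 for other proteoglycans to 0.04 for linker and chain synthesis, and by edgeR 0 of the genes shown passed the adjusted threshold.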

How the data were processed

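Total RNA of JJ012 cells was taken up in TRIzol and read from both ends on a NovaSeq machine, per the labels' protocols. HTSeq 0.6.1, HISAT2 2.2.1 and cutadapt 1.9.1 are listed, with build hg38, per the submitters' processing notes. The strand setting and the annotation release were not given in the sources used here, so overlapping and antisense genes cannot be separated with certainty. The authors deposited raw counts per gene and FPKM, scaled by exonic length and library total; FPKM recomputed from the counts differed by at most 0.005. Exonic lengths pool all isoforms, so levels compared between genes are approximate.

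Genes passing filterByExpr (minimum count 10) entered edgeR 4.0.16 (R 4.3.3, TMM factors, robust quasi-likelihood, group as the only term), with Benjamini-Hochberg adjustment over all genes and a threshold of 0.05. DESeq2 1.42.0, limma 3.58.1 (pseudocounts of 1 and 0.1 on FPKM), other scalings and filters, a replicate block and leaving out each library were alternatives. Replicates differed by more than counting noise (chi-square per gene of 166 and 34.8). On simulated counts for this comparison (200 of 14717 genes changed), edgeR recovered 11.9% of 2-fold, 85.1% of 4-fold and 100% of 8-fold changes with 5 false calls, so a 2-fold change is often missed. The members and lists were chosen with earlier results of these data known. The named genes were all members and, per list, the 3 tested genes of lowest p, and others are said to be so. Promoter sequences are RefSeq's.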

Additional observations from a re-analysis of the deposited data

How the results depend on the processing

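Over all genes tested, edgeR called 0 genes, against 208 without the count filter, 58 by DESeq2, 26 in the fit that adds a replicate block, and 3 to 3971 when a library was left out. Of the members, 0 were called, and 0 to 1 when a library was left out. The sign of SDC3 turned with upper-quartile scaling (log2 fold change -0.055) and with the stricter filter of 1 CPM in 2 libraries (-0.013). Without each library in turn, the log2 fold change ran from -0.33 to 0.44 for SDC3, from -0.54 to 0.30 for GPC1, from -0.020 to 0.27 for SDC2 and from 0.24 to 0.54 for SDC4, and that of summed glypican FPKM from -0.56 to 0.13. SDC1, SDC4 and GPC6 kept their sign in all 17 alternatives. These draw on the same 4 libraries, in which the groups did not overlap for these genes, so the kept sign adds no support. The replicate numbers share no stated origin; differences between replicates 1 and 2 correlated at -0.32 across genes between the groups, and with the numbers crossed as a block, chosen after seeing the data, 1430 genes and 0 members were called. The cause of these shifts was not tested. Standard errors of log2 fold changes had a median of 0.33, which limits what 2 libraries a group can show.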
